A study of Mus musculus with 6 samples.

Results

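The genes described here were 45 interferon-stimulated, interferon regulatory factor and interferon receptor genes, taken by symbol from a list drawn up with earlier results of these data known. All 45 were found among the 56953 genes of the RNA sequencing table by their Ensembl identifiers in the GENCODE mouse annotation. The samples were mouse embryonic fibroblasts (MEFs), connective tissue cells grown from mouse embryos, in 6 bulk RNA libraries: 3 labelled WT and 3 labelled GαqKO. The GαqKO cells came from a line the study's methods name Gαq/11-Knock-Out, so the genes of Gαq and of its close relative Gα11 are both named as lost. All cells were cultured in DMEM with fetal bovine serum, penicillin and streptomycin, with no interferon or other treatment named, and the sources used here give no strain, embryonic age or number of lines or clones for either group. The comparison asked how the RNA of the cells labelled GαqKO differed from that of the WT cells.

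Values below are normalized counts, that is, reads per gene scaled by the size factor of the library. The summed normalized counts ran from 11392429 to 11483486 per library, and the reads recovered in 5 libraries from 9853000 to 12229175. Gnaq, the gene of Gαq, had 1665.5, 1660.2 and 1746.6 normalized counts in WT and 1959.7, 1930.9 and 1888.2 in the libraries labelled GαqKO, so its RNA was not lower under that label, and a gene-level count does not show which exons were read. Gna11, the gene of Gα11, was lower, at 2140.6, 2179.9 and 2123.2 against 472.3, 463.7 and 418.9. The 7 Y-linked genes tested had a median log2 difference of -8.21 between the groups, so the cultures differed in more than the label names, and the genotype and other differences between the lines cannot be told apart. Of 14 fibroblast markers, 5 rose and 8 fell under the GαqKO label, where 31.8% and 34.1% of all genes tested did so, and their summed level was 97508.6 to 102632.2 in WT against 67166.0 to 70527.1. Vim, Col1a1, Col1a2 and Fn1 were abundant in WT, with at least 39783.7, 15324.2, 13060.8 and 10992.2 normalized counts, and lower under the GαqKO label. Pdgfra, Dcn and Thy1 were low in WT, with at most 21.9, 35.5 and 2.1, and far higher under the GαqKO label, with at least 2273.9, 1604.2 and 59.0. Of 14 leukocyte markers, 4 were listed at 0 in every library, Tyrobp and Ncr1 among them, and Ptprc reached at most 3.1. Cd68, Fcer1g and Csf1r, with 84.6 to 103.9, 30.5 to 38.9 and 10.7 to 20.4 normalized counts in WT, made up most of the summed level, which was 152.5 to 166.1 in WT and 102.4 to 131.8 in the libraries labelled GαqKO. The summed level of 8 epithelial markers was 522.2 to 547.2 in WT and 13.1 to 24.3 in the libraries labelled GαqKO, with Cdh1 and Krt14 holding most of the WT level, and that of 8 endothelial markers 14.6 to 29.2 and 22.2 to 40.5.

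Type I interferons bind a receptor of the chains IFNAR1 and IFNAR2, whose kinases phosphorylate transcription factors of the STAT family. With IRF9 these form the complex ISGF3, which binds the interferon-stimulated response element (ISRE) in the promoters of its target genes. Many of those genes are also kept at a low level without added interferon, and their products sense, bind, cleave or trap viral components, tag proteins with the ubiquitin-like protein ISG15, or feed back on the pathway. Fibroblasts are a classical cell type in which this response is studied.

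Most of the genes that could be tested were higher in the libraries labelled GαqKO, but 14 of these 36 passed the filter on low values only through those libraries. The largest differences were in genes with very few reads in WT. The ubiquitin-like modifier Isg15, the virion tether Bst2 and the membrane protein Ifi27 were 5.11, 7.26 and 8.75 times as high as in WT. Oas1b, of the oligoadenylate synthetase family, was 10.1 times as high, whereas the GTPase Irgm1, the RNA-binding Ifit2 and the ligase Herc6 were lower. Of the 45 genes, 36 reached 10 normalized counts in 3 or more libraries and were tested with limma. At an adjusted p under 0.05, 23 of them rose and 6 fell, beside 31.8% and 34.1% of all 14096 genes tested, of which 65.8% were called in either direction. The median log2 fold change, GαqKO minus WT, was 1.38 over the 36 genes and -0.01 over all genes tested. With a log2 fold change beyond 1 in size as well, 19 were higher and 3 lower, beside 10.2% and 10.5% of all genes tested. In 22 of the 36 genes tested the 3 libraries labelled GαqKO lay wholly above the 3 WT libraries and in 6 wholly below, where 33.8% and 35.8% of all genes tested did so. With the genes not tested, 26 of the 45 lay wholly above and 6 wholly below. Of all 56953 genes, 5487 and 5653 did so, and 30862 were listed at 0 in every library.

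The filter on low values shaped these counts. Of the 36 genes, 14 passed it only through the libraries labelled GαqKO (Ifi203, Zbp1, Gbp7, Gbp3, Ifi44, Oasl2, Oas3, Oas1b, Oas1a, Irf7, Cmpk2, Rtp4, Mx1 and Ifit1). These had at least 10 normalized counts in each library labelled GαqKO but not in each WT library. Such a filter favours genes that are higher under the GαqKO label, although it does not force that direction. Among the 22 with at least 10 normalized counts in every library, 9 (40.9%) were higher and 6 (27.3%) lower, beside 32.7% and 34.2% of the 12054 genes that met the same condition. Their median log2 fold change was 0.16, 5 were higher by a log2 fold change over 1, where 6.89% of those genes were, and 3 lower, where 6.35% were. In bulk RNA, fewer cells that express a gene and less RNA per cell cannot be told apart.

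**Figure D1:**
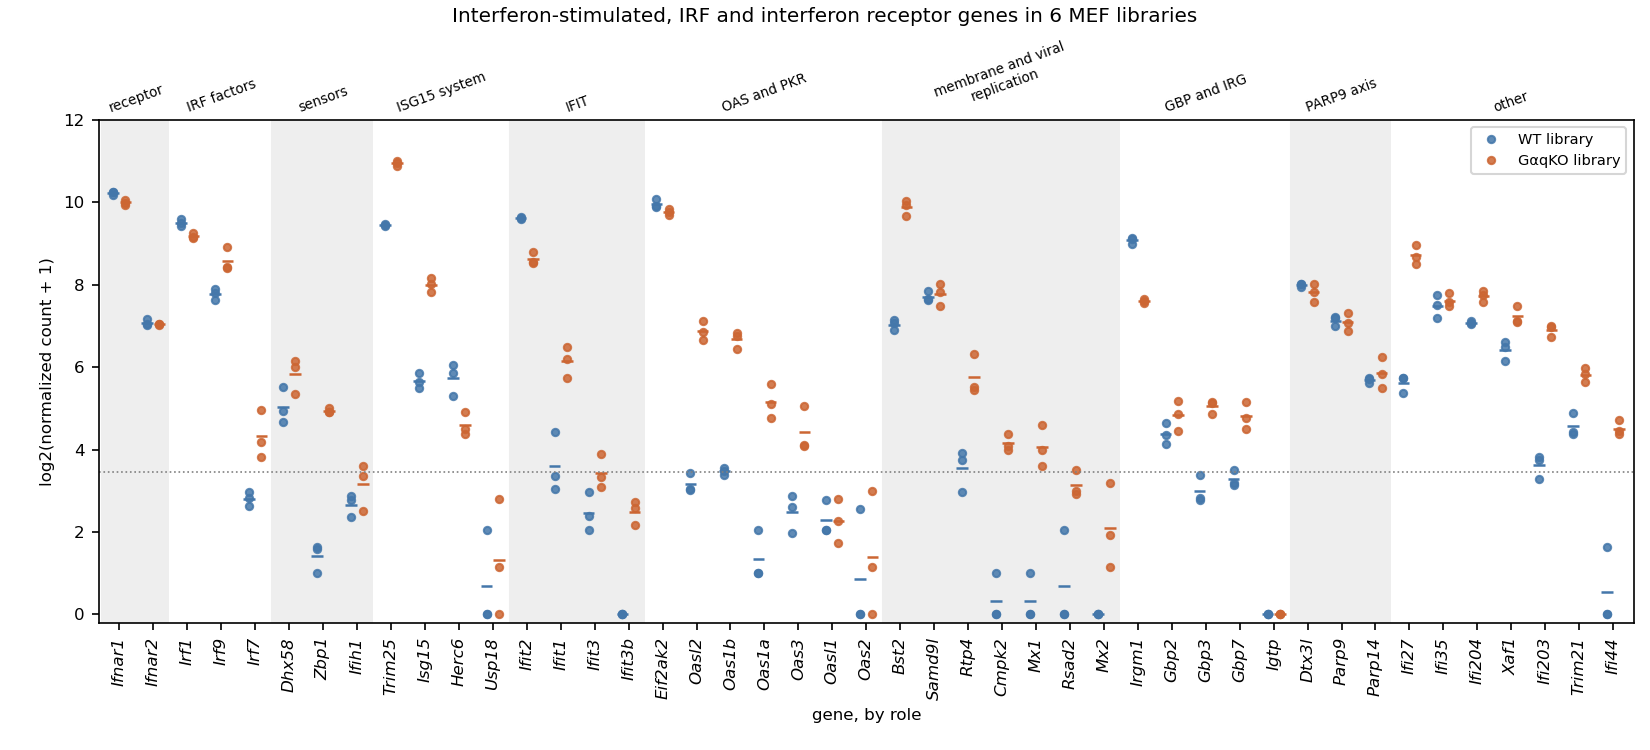
Level of each of the 45 genes on the log2(normalized count + 1) scale (vertical axis) in the 3 WT and 3 GαqKO-labelled libraries (points; bars are group means), grouped by role, with the dotted line at the filter of 10 normalized counts. The GαqKO-labelled points lie wholly above WT in 26 genes and wholly below in 6, where 5487 and 5653 of all 56953 genes do so. Many WT points of the genes that differ most lie under the filter line.

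The ISRE core was searched as TTTC, any 2 bases and TTTC, or GAAA, any 2 bases and GAAA on the other strand. The window ran from 250 bases before to 50 bases after the start of each gene's canonical transcript (GRCm39). Promoter letters were not used to choose the genes, but a high share follows from listing interferon-stimulated genes, many of them targets of ISGF3. The core was found in 23 of the 45 windows (51.1%), in 29 of 73 other interferon-stimulated genes (39.7%) and in 835 of 21770 windows of all protein-coding genes (3.84%). Of the 19 genes higher by a log2 fold change over 1, 12 (63.2%) held it, as did 1 of the 3 lower ones (Irgm1), 4 of the other 14 tested and 6 of the 9 not tested. Those 19 include all 14 genes that passed the filter only through the libraries labelled GαqKO, and the split by call was not tested. The gamma-activated site, searched as TTCNNNGAA, which is its own reverse complement and was counted whether or not it overlapped an ISRE match, was in 9 of 45 windows and in 8.81% of all. A match is a description of letters in the window, not a shown binding site.

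The stretches below, each of 60 bases and read 5′ to 3′ on the strand of the gene, come from genes that hold more than 1 match. They show the core repeated, and overlapping in some, in genes that were higher (Isg15, Bst2, Oas1b, Zbp1, Rtp4 and Ifit1). The others are a gene that was lower (Irgm1) and a pair of near copies with too few reads to test (Ifit3 and Ifit3b). Ifi27, Oas3, Gbp7 and Ifi203, which were higher too, held 1 match each. Capitals mark the bases inside a match to the ISRE core, and the last capitals of the Rtp4 stretch begin a match that runs on past the start.
Isg15, chr4:156285313-156285372, minus strand: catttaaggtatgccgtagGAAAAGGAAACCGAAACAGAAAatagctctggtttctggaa
Bst2, chr8:71990209-71990268, minus strand: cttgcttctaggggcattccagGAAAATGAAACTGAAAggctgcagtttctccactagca
Oas1b, chr5:120950643-120950702, plus strand: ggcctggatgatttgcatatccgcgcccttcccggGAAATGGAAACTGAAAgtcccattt
Zbp1, chr2:173060730-173060789, minus strand: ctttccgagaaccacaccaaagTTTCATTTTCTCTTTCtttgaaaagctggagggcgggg
Rtp4, chr16:23428586-23428645, plus strand: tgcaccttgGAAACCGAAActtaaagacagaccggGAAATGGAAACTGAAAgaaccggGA
Ifit1, chr19:34618169-34618228, plus strand: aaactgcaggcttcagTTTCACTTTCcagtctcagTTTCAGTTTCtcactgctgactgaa
Irgm1, chr11:48762248-48762307, minus strand: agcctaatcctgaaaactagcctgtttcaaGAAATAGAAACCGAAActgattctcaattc
Ifit3, chr19:34560765-34560824, plus strand: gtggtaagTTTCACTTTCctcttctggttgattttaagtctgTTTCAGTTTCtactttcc
Ifit3b, chr19:34585161-34585220, plus strand: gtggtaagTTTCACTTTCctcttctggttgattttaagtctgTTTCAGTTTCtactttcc
Isg15 held 3 overlapping matches, and Bst2, Oas1b and Irgm1 held 2 each. The matches of Ifit1, Ifit3 and Ifit3b did not overlap, and the printed stretches of Ifit3 and Ifit3b are identical.

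**Figure D2:**
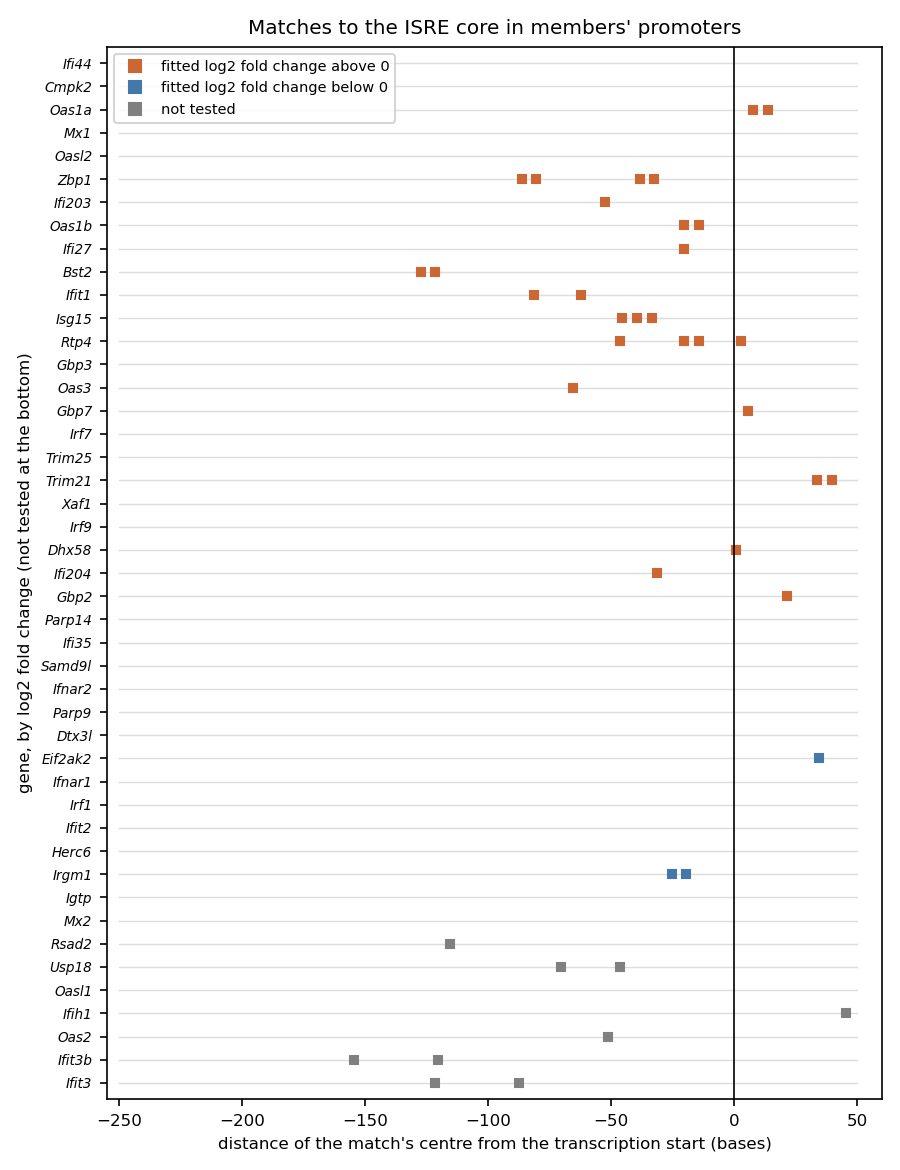
Distance in bases of each ISRE core match from the transcription start (horizontal axis) for each of the 45 genes (rows, ordered by log2 fold change with the genes not tested at the bottom), coloured by the direction of the fitted change. Matches occur in 23 genes, most of them before the start, and in genes of each class, Irgm1 and Eif2ak2 among those that were lower.

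The receptor chains differed little, and the regulatory factors moved in both directions. Ifnar1 (chr16:91281942-91305789), the low-affinity chain of the receptor, had 1228.0, 1165.7 and 1218.4 normalized counts in WT and 986.9, 1018.6 and 1061.4 in the libraries labelled GαqKO. The groups did not overlap, and the fall was small, with a log2 fold change of -0.24 (standard error, SE, 0.051, adjusted p = 0.00111 from limma). Chromosome 16 as a whole had a median log2 fold change of -0.19, and with the chromosome medians removed Ifnar1 stood at -0.05 (adjusted p = 0.412). Ifnar2 (chr16:91169618-91202723), the high-affinity chain, had 129.5, 141.8 and 130.3 in WT and 130.5, 128.3 and 131.9 under the GαqKO label, and the groups overlapped (log2 fold change -0.04, SE 0.119, adjusted p = 0.792). Of its 150-base transcript windows, 12.2% are identical in Gm21970, so reads there cannot be assigned to either.

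Irf9 (chr14:55841028-55847812), the DNA-binding subunit of ISGF3, had 237.0, 220.5 and 196.4 normalized counts in WT and 343.7, 336.5 and 483.4 in the libraries labelled GαqKO. It rose without overlap, by a log2 fold change of 0.81 (SE 0.13, adjusted p = 8.45e-05 from limma), and replicate 3 was the highest of its group. Irf7 (chr7:140842619-140846398), the factor that amplifies interferon production, was scarce, with 5.2, 6.8 and 6.1 in WT and 13.1, 17.3 and 30.2 under the GαqKO label. The limma test called it higher (log2 fold change 1.52, SE 0.389, adjusted p = 0.00355), whereas DESeq2 on the recovered reads of 5 libraries did not (adjusted p = 0.193). Irf1 (chr11:53660812-53669200), a factor that binds related elements and responds strongly to interferon gamma, had 773.7, 692.6 and 717.6 in WT and 612.2, 574.7 and 558.9 under the GαqKO label. It fell without overlap by a log2 fold change of -0.32 (SE 0.065, adjusted p = 6.1e-04 from limma), and 46.0% of its exon bases lie in exons of other annotated genes on the opposite strand. Of the 3 factors, Irf9 and Irf7 were thus called higher and Irf1 lower.

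Among the cytosolic sensors, Zbp1 (chr2:173033815-173060724), which binds left-handed nucleic acids and can start necroptosis, had 2.1, 1.0 and 2.0 normalized counts in WT and 31.0, 28.9 and 29.2 in the libraries labelled GαqKO. The GαqKO-labelled libraries were close to each other and far above WT (log2 fold change 3.54, SE 0.395, adjusted p = 2.85e-06 from limma). Since WT held 5 reads in all, the ratio of recovered reads was 17.9, with a 95% counting interval of 7.22 to 57.0. Dhx58, the gene of LGP2, a helicase that modulates RNA sensing, ranged from 24.3 to 44.9 in WT and from 39.4 to 69.4 under the GαqKO label. The groups overlapped, and its call (log2 fold change 0.79, adjusted p = 0.0224) was lost with edgeR (adjusted p = 0.0529) and DESeq2 (adjusted p = 0.185) on 5 libraries and with no trend in the prior spread (adjusted p = 0.0671) and without any of WT replicates 2 and 3 and GαqKO replicates 2 and 3 (adjusted p between 0.0605 and 0.0983). Ifih1, the gene of the RNA sensor MDA5, stayed under the filter, at 4.1 to 6.3 in WT and 4.7 to 11.1 under the GαqKO label.

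In the ISG15 system the modifier and a ligase rose while another ligase fell. Isg15 (chr4:156283883-156285303) had 57.4, 43.7 and 48.9 normalized counts in WT and 224.4, 284.4 and 257.8 in the libraries labelled GαqKO. Each GαqKO-labelled library was far above each WT library, with a log2 fold change of 2.33 (SE 0.15, adjusted p = 9.93e-09 from limma). Of its exon bases, 31.1% overlap Gm46878 on the opposite strand, and the strand setting of the counting is not given in the sources used here. Trim25 (chr11:88890202-88911122), a ubiquitin ligase of the RNA sensor RIG-I that also transfers ISG15, had 690.2, 714.0 and 696.2 in WT and 2002.0, 1895.1 and 2043.3 under the GαqKO label. Its replicates were tight and it rose 2.83-fold (log2 fold change 1.498, SE 0.05, adjusted p = 1.26e-11). Herc6 (chr6:57557932-57642597), the main ISG15 ligase of the mouse, had 38.6, 57.3 and 65.1 in WT and 21.6, 19.7 and 29.2 under the GαqKO label. It fell without overlap (log2 fold change -1.15, SE 0.262, adjusted p = 0.00161), and without WT replicate 3 the log2 fold change was -0.99. Of the exon bases of Herc6, 16.6% lie in exons of other genes, and 7.88% of its 150-base windows are shared with Gm45193. Usp18, which removes ISG15 from proteins and restrains the receptor, was almost absent, at 0, 0 and 3.1 in WT and 0, 1.2 and 6.0 under the GαqKO label, and was not tested.

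The IFIT genes, whose products bind viral RNA ends and lie side by side on chromosome 19, split. Ifit1 (chr19:34618271-34632174) had 7.3, 20.4 and 9.2 normalized counts in WT and 89.2, 52.0 and 72.5 in the libraries labelled GαqKO. It rose without overlap (log2 fold change 2.54, SE 0.349, adjusted p = 2.16e-05 from limma), although each group was uneven. Ifit2 (chr19:34527932-34554524) was far more abundant in WT and went the other way, from 784.2, 777.1 and 806.1 to 443.2, 374.6 and 367.6. It fell with a log2 fold change of -1.001 (SE 0.076, adjusted p = 5.51e-08), just past the fold threshold. Ifit3 had 4.2, 6.8 and 3.1 in WT and 7.5, 13.9 and 9.1 under the GαqKO label, and Ifit3b 0 in each WT library and 5.6, 3.5 and 5.0 under the GαqKO label. Both stayed under the filter, and 296 windows of 150 bases are identical between their transcripts (9.16% of those of Ifit3 and 15.6% of those of Ifit3b), so reads there cannot be assigned to either.

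The genes of the oligoadenylate synthetase family, only some of whose products make the messenger that activates RNase L, were scarce in WT. All 4 that could be tested passed the filter only through the libraries labelled GαqKO, which favours genes that are higher there. Oas1b (chr5:120950700-120962228) had 9.4, 10.7 and 10.2 normalized counts in WT and 85.5, 107.5 and 112.8 under the GαqKO label, a log2 fold change of 3.21 (SE 0.231, adjusted p = 3.22e-08 from limma). Oasl2 (chr5:115034997-115050295), a like protein that also carries ubiquitin-like domains, went from 7.3, 9.7 and 7.1 to 100.5, 114.5 and 139.0 (log2 fold change 3.72, SE 0.245, adjusted p = 1.27e-08). Both pairs of groups were separated by a wide gap. Oas1a (chr5:121031070-121046449) had 3.1, 1.0 and 1.0 in WT and 26.3, 33.5 and 47.3 under the GαqKO label (log2 fold change 3.81, SE 0.436, adjusted p = 3.7e-06). With 5 WT reads its ratio of recovered reads was 17.5 (95% counting interval 7.09 to 56.1), and 7.65% of its 150-base windows are shared with Oas1g. Oas3 (chr5:120891163-120915729) had 6.3, 2.9 and 5.1 in WT and 16.0, 16.2 and 32.2 under the GαqKO label. Limma called it higher (log2 fold change 1.94, SE 0.418, adjusted p = 0.00105) and DESeq2 on 5 libraries did not (adjusted p = 0.085). Oas2 and Oasl1 stayed under the filter, with at most 7.0 and 6.0 normalized counts in any library and overlapping groups.

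Eif2ak2, the gene of the RNA-activated kinase PKR that halts translation, was the most abundant of these genes in WT per length. It had 965.9, 940.3 and 1086.0 normalized counts in WT and 829.2, 873.0 and 908.3 in the libraries labelled GαqKO. The fall was slight (log2 fold change -0.20, SE 0.064, adjusted p = 0.0159 from limma) and its call was lost with DESeq2 on 5 libraries (adjusted p = 0.0526), with no trend in the prior spread (adjusted p = 0.071), without GαqKO replicate 1 (adjusted p = 0.0759) and without WT replicate 3 (adjusted p = 0.064).

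Among the genes acting on virus release and replication, Bst2 (chr8:71986895-71990114), which encodes tetherin, had 139.9, 133.1 and 118.1 normalized counts in WT and 815.1, 980.5 and 1045.3 in the libraries labelled GαqKO. The lowest GαqKO-labelled library was far above the highest WT library, with a log2 fold change of 2.85 (SE 0.101, adjusted p = 2.27e-11 from limma). Rtp4 (chr16:23337811-23432972), a Golgi chaperone of receptors, went from 12.5, 6.8 and 14.2 to 45.1, 42.8 and 78.5 (log2 fold change 2.21, SE 0.334, adjusted p = 5.1e-05), with 23.3% of its 150-base windows shared with Gm45338. Cmpk2 (chr12:26519203-26529836), a mitochondrial nucleotide kinase, had 0, 1.0 and 0 in WT, a single read, and 19.7, 15.0 and 16.1 under the GαqKO label. Its ratio of recovered reads was 52.3, with a 95% counting interval of 8.78 to 2126 (adjusted p = 1.92e-05). Mx1 (chr16:97248235-97264107), a dynamin-like GTPase against orthomyxoviruses, likewise had a single WT read, at 1.0, 0 and 0, and 15.0, 23.1 and 11.1 under the GαqKO label. Its ratio was 55.4 (95% counting interval 9.33 to 2248, adjusted p = 4.17e-05). The relative Mx2 had 0 in each WT library and 2.8, 1.2 and 8.1 under the GαqKO label, and Rsad2, the gene of viperin, had 3.1, 0 and 0 against 6.6, 10.4 and 7.0. Neither was tested. Samd9l, a growth-restraining antiviral factor, ranged from 196.2 to 230.0 in WT and from 179.2 to 259.8 under the GαqKO label, and the groups overlapped (log2 fold change 0.07, adjusted p = 0.65).

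The interferon-inducible GTPases, which act on vacuoles that hold pathogens, also split. Irgm1 (chr11:48752795-48763164), a regulator of the family, had 552.4, 557.6 and 511.0 normalized counts in WT and 185.9, 195.4 and 200.4 in the libraries labelled GαqKO. It was 2.79-fold lower without overlap, the largest fall among the 36 genes tested (log2 fold change -1.47, SE 0.08, adjusted p = 1.63e-09 from limma). Gbp3 (chr3:142265731-142278979) had 9.4, 5.8 and 6.1 in WT and 28.2, 34.7 and 34.2 under the GαqKO label (log2 fold change 2.06, SE 0.32, adjusted p = 6.59e-05). Gbp7 (chr3:142236044-142255910) had 10.4, 7.8 and 8.1 in WT and 21.6, 34.7 and 26.2 under the GαqKO label (log2 fold change 1.53, SE 0.321, adjusted p = 8.52e-04). Of the exon bases of Gbp7, 15.8% lie in exons of other genes, and 7.26% of its 150-base windows are shared with Gm43802. Both guanylate-binding genes rose from a low level, on a chromosome whose median log2 fold change was 0.33. Their neighbour Gbp2 ranged from 16.5 to 24.0 in WT and from 20.8 to 35.2 under the GαqKO label, with overlapping groups (log2 fold change 0.46, adjusted p = 0.181). Igtp was listed at 0 in every library. Of its exon bases, 3.6% lie in exons of another gene, Irgm2, and 86.8% lie within the span of other genes on the same strand.

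The PARP9 axis was not called. Parp9, a mono-ADP-ribosyltransferase that works with the ligase Dtx3l, ranged from 126.3 to 146.7 normalized counts in WT and from 116.8 to 157.1 in the libraries labelled GαqKO (log2 fold change -0.04, SE 0.138, adjusted p = 0.796). Dtx3l, read from the opposite strand of the same region, ranged from 247.5 to 259.6 in WT and from 191.9 to 258.8 under the GαqKO label (log2 fold change -0.19, SE 0.111, adjusted p = 0.155). Without GαqKO replicate 3 Dtx3l passed the threshold (adjusted p = 0.0411), as it did with edgeR on 5 libraries (adjusted p = 0.0498). Parp14, a larger member of the family, ranged from 47.6 to 51.9 and from 43.9 to 74.5 (log2 fold change 0.18, adjusted p = 0.481). In each of the 3 genes the groups overlapped.

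Of the remaining genes, Ifi27 (chr12:103392254-103407799), a small hydrophobic membrane protein, had 40.7, 52.5 and 51.9 normalized counts in WT and 360.6, 405.8 and 502.5 under the GαqKO label, a log2 fold change of 3.10 (SE 0.15, adjusted p = 5.12e-10 from limma). Ifi203 (chr1:173747971-173770436), of the DNA-binding HIN-200 family, had 12.5, 8.7 and 13.2 in WT and 106.1, 123.7 and 127.9 under the GαqKO label (log2 fold change 3.28, SE 0.232, adjusted p = 2.64e-08). Both rose with a wide gap between the groups. Its relative Ifi204 rose less, from 131.6, 137.0 and 134.4 to 213.2, 228.9 and 189.3 (log2 fold change 0.64, SE 0.113, adjusted p = 1.98e-04), and 8.03% of its 150-base windows are shared with Ifi211. Ifi44 (chr3:151436559-151455625), a cytoplasmic protein of the response, had 2.1, 0 and 0 in WT, which is 2 reads, and 20.7, 19.7 and 25.2 under the GαqKO label. Its ratio of recovered reads was 30.0 (95% counting interval 7.77 to 256.5, adjusted p = 2.07e-05). Trim21 (chr7:102207128-102214704), the cytosolic antibody receptor, had 19.8, 20.4 and 28.5 in WT and 62.0, 48.6 and 56.4 under the GαqKO label (log2 fold change 1.26, SE 0.236, adjusted p = 3.52e-04). Xaf1, an antagonist of the apoptosis inhibitor XIAP, ranged from 70.2 to 97.1 in WT and from 135.2 to 179.3 under the GαqKO label, without overlap (log2 fold change 0.81, SE 0.163, adjusted p = 5.93e-04). Ifi35, a partner of the signalling protein NMI, ranged from 144.5 to 213.0 and from 177.5 to 220.5, with overlapping groups (log2 fold change 0.13, adjusted p = 0.429).

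**Figure D3:**
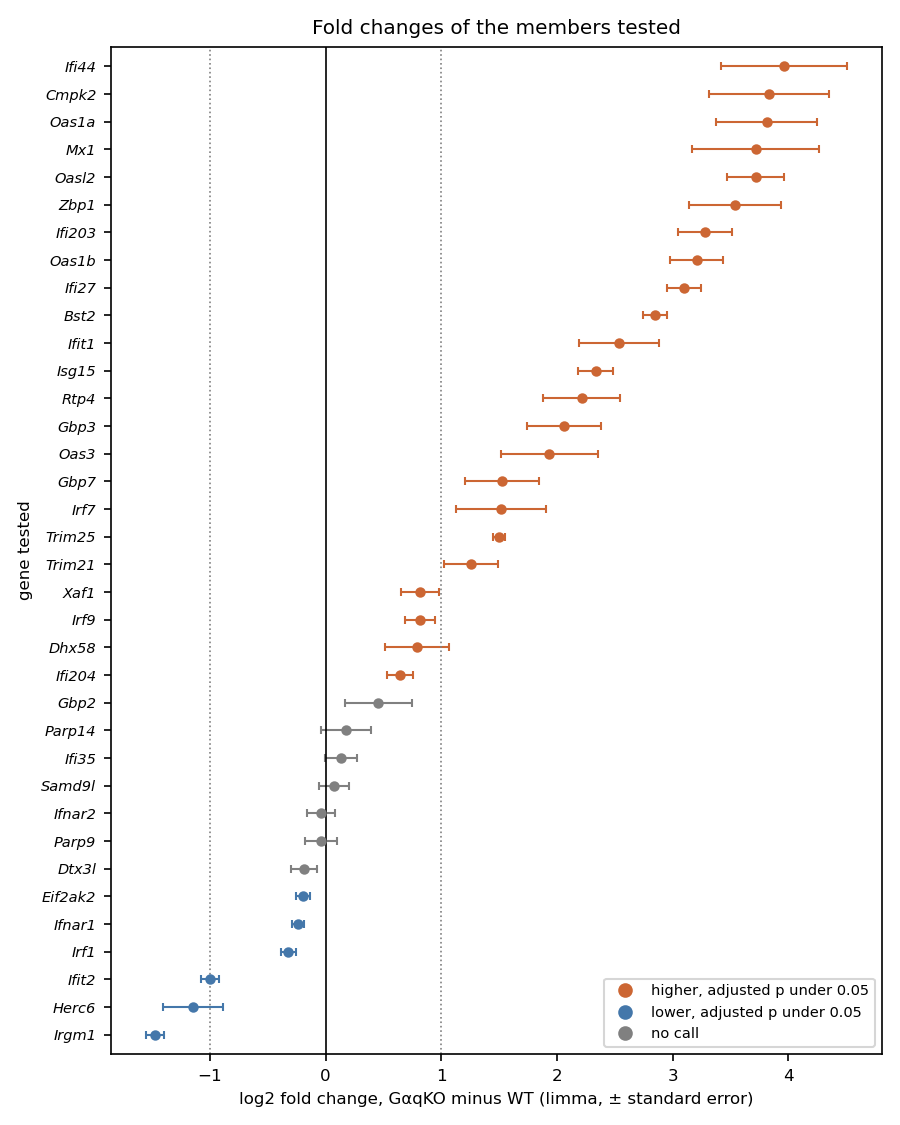
Log2 fold change, GαqKO minus WT, of the 36 genes tested (points, limma on log2(normalized count + 1); bars are ± 1 standard error), coloured by call at an adjusted p under 0.05, with dotted lines at -1 and 1. Of these, 23 were called higher, 6 lower and 7 not called, with Irgm1 lowest at -1.47; the genes at the top have the widest errors.

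Levels of different genes were compared per kilobase of merged exon, as group means. In WT the highest were Eif2ak2 (183.5 normalized counts per kilobase), Irf1 (155.6), Ifnar1 (148.3), Ifit2 (133.6) and Trim25 (121.6). In the libraries labelled GαqKO the order began with Bst2 (780.0), Trim25 (343.9), Isg15 (326.8), Eif2ak2 (160.1) and Ifnar1 (125.9). Bst2 stood at 107.4 and Isg15 at 63.9 per kilobase in WT, so both moved from below the receptor chain Ifnar1 to above it. Zbp1, Oas1a, Mx1, Ifi44 and Cmpk2 were all under 1 per kilobase in WT, the highest of them Zbp1 with 0.396, and between 3.55 (Ifi44) and 6.92 (Zbp1) under the GαqKO label.

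**Figure D4:**
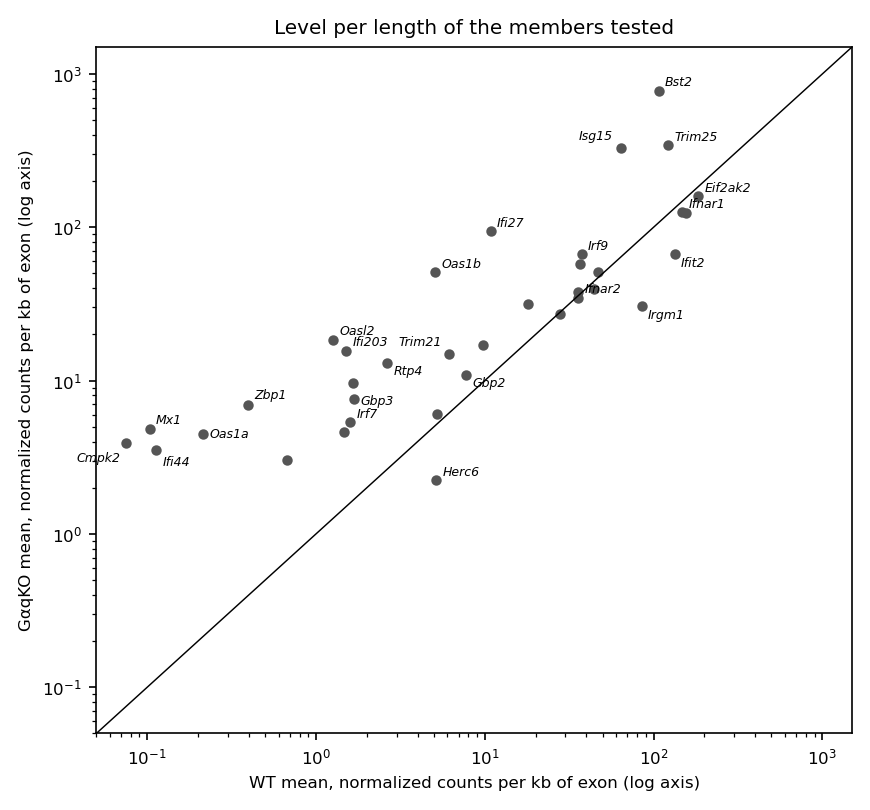
Mean normalized counts per kilobase of exon in WT (horizontal, log axis) against the libraries labelled GαqKO (vertical, log axis) for the 36 genes tested, with the line of equal level. Genes that were scarce in WT, such as Cmpk2, Mx1 and Zbp1, lie far above the line, and among the abundant ones Bst2, Trim25 and Isg15 lie above it and Irgm1 and Ifit2 below.

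The replicates labelled GαqKO were not alike for these genes. Replicate 3 had the highest value of its group in 24 of the 36 genes tested (66.7%), where it did so in 32.5% of all genes tested. Among the 19 genes higher by a log2 fold change over 1 it was highest in 11, as in Bst2, Oasl2, Oas1a, Oas3, Irf7 and Rtp4. Without it, 22 of the 36 genes were called higher and 7 lower, beside 4116 and 4483 of all 14096 genes tested. The median log2 fold change of the 36 genes was then 1.22.

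Other genes of the response, 73 found by symbol that are not among the 45, included 43 that could be tested, of which 10 passed the filter only through the libraries labelled GαqKO. Of the 43, 26 were higher and 5 lower, beside 31.8% and 34.1% of all genes tested, with a median log2 fold change of 0.60. By a log2 fold change beyond 1 in size, 12 were higher and 0 lower, beside 10.2% and 10.5%. Of those 73 genes, 15 were listed at 0 in every library. Among the 31 with at least 10 normalized counts in every library, 17 (54.8%) were higher and 7 (22.6%) lower, beside the 32.7% and 34.2% given above. By a log2 fold change beyond 1 in size, only 3 of these 31 were higher and 0 lower, beside 6.89% and 6.35%. Trim30a, a ligase of innate signalling, went from 10.4, 9.7 and 20.4 to 184.0, 179.2 and 191.3 (log2 fold change 3.75, SE 0.254, adjusted p = 1.63e-08). Lgals3bp, a secreted glycoprotein that binds galectins, went from 95.0, 116.6 and 107.9 to 701.5, 685.7 and 769.4 (log2 fold change 2.75, SE 0.097, adjusted p = 2.16e-11). Slfn9, of the Schlafen family, went from 319.5, 369.1 and 374.6 to 1843.3, 1728.6 and 1669.7 (log2 fold change 2.30, SE 0.07, adjusted p = 4.55e-12). All 3 were wholly separated. Ogfr, a growth factor receptor for opioid peptides, and Rnf213, a large ubiquitin ligase, rose by log2 fold changes of 1.23 and 0.94. Of those that fell, the exonuclease Isg20 had a log2 fold change of -0.63, the dNTP hydrolase Samhd1 -0.54, Trafd1, a feedback regulator, -0.42, and the nuclear body protein Pml -0.14. The call of Pml was lost with edgeR (adjusted p = 0.0792) and DESeq2 (adjusted p = 0.161) on 5 libraries, with no filter, no trend in the prior spread or upper quartile scaling, and without WT replicate 3 or any replicate labelled GαqKO (adjusted p between 0.0559 and 0.121).

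The interferons themselves were listed at or near 0. Of 21 genes of type I, II and III interferons, 18 were listed at 0 in every library, Ifnb1 among them, the summed level was at most 2.8 normalized counts in any library, and none was tested. A listed 0 can also stand for reads that were not assigned: the widely used receptor chain Il10rb, which shares 27.9% of its exon bases with another gene on the same strand, was listed at 0 in every library too, whereas Ifnb1 shares none (0.0%).

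Of 19 genes of receptor signalling (kinases, STATs, other receptors and regulators), 17 were tested, 5 were higher and 10 lower, beside 31.8% and 34.1% of all genes tested, with a median log2 fold change of -0.25. Stat2, a subunit of ISGF3, went from 283.0, 217.6 and 247.3 normalized counts to 147.4, 204.7 and 191.3 (log2 fold change -0.46, SE 0.135, adjusted p = 0.00811), and with chromosome medians removed its adjusted p was 0.248. Ifnlr1, the specific chain of the type III interferon receptor, had 280.9, 321.5 and 311.5 in WT and 0.9, 0 and 0 under the GαqKO label, 906 recovered reads in WT against 1. The kinase Jak2 had a log2 fold change of -0.70, the factor Irf2bpl -0.68 and the STAT inhibitor Pias1 -0.43. The feedback inhibitor Socs1 rose by 0.78, the repressor Irf2 by 0.74, and its partners Irf2bp2 and Irf2bp1 by 1.18 and 0.63 on the log2 scale.

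A list of 27 genes held sensors, mostly of nucleic acids, with adaptors and other carriers of their signals upstream of interferon. Of these, 23 were tested, 8 were higher and 11 lower, beside 31.8% and 34.1% of all genes tested, with a median log2 fold change of -0.22. Adar and Samhd1 were counted here and also among the other interferon-stimulated genes. Cgas, the cytosolic DNA sensor, went from 340.4, 334.2 and 333.9 normalized counts to 1448.0, 1410.6 and 1473.3 (log2 fold change 2.10, SE 0.055, adjusted p = 1.18e-12 from limma), with 34.4% of its exon bases in exons of other genes. Nlrc5, which drives MHC class I genes, went from 14.6, 17.5 and 20.4 to 170.0, 171.1 and 171.2 (log2 fold change 3.23, SE 0.189, adjusted p = 3.73e-09). Sting1, the adaptor that acts after Cgas, went the other way, from 240.2, 273.0 and 264.6 to 145.5, 145.7 and 156.1 (log2 fold change -0.79, SE 0.102, adjusted p = 1.13e-05). Traf6, Tbk1, Ticam1 and Rigi, which carry or start signals to the interferon genes, fell with log2 fold changes of -1.08, -0.78, -0.71 and -0.64. Irf3, the adaptor Mavs and the RNA editor Adar rose by 0.47, 0.46 and 0.45 on the log2 scale, and Adar, with chromosome medians removed, stood at 0.12 (adjusted p = 0.378).

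**Figure D5:**
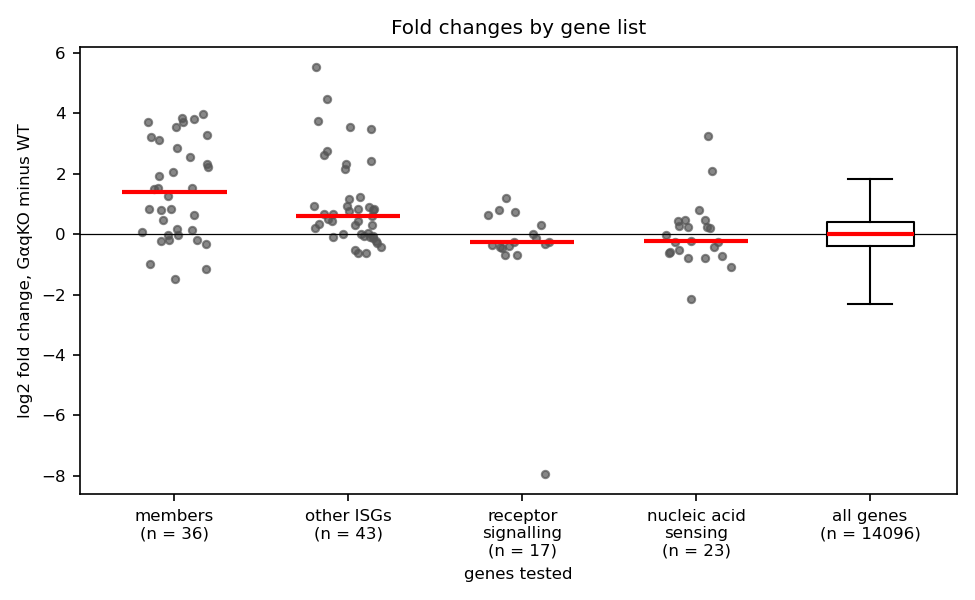
Log2 fold change, GαqKO minus WT (vertical axis), of each gene tested among the 45 genes (members), the other interferon-stimulated genes (ISGs), receptor signalling and nucleic acid sensing (points; red lines are medians), beside all 14096 genes tested (box of quartiles, whiskers at the 5th and 95th percentiles). The medians were 1.38, 0.60, -0.25, -0.22 and -0.01, and the lowest point is Ifnlr1. Of the members 14, and of the other ISGs 10, passed the filter only through the libraries labelled GαqKO. Among genes with at least 10 normalized counts in every library, the medians of these 2 lists were 0.16 and 0.31.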

How the data were processed

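RNA of 6 MEF cultures (3 WT, 3 labelled GαqKO) was poly-A selected and sequenced as 2 × 150-base reads. The authors aligned with Rbowtie2 to GRCm39, counted per gene with featureCounts on GENCODE release 32 and used DESeq2; versions, strand setting and low-count filter are not given in the sources used here. What was deposited is a normalized signal: the counts of each gene over the size factor of its library. The study states 3 biological replicates per genotype; nothing names separate lines, so p-values measure the spread between these cultures.

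Symbols and coordinates came from GENCODE release 39 of the same build (56310 of 56953 identifiers, 98.9%). Genes reaching 10 normalized counts in 3 or more libraries were tested with limma 3.58.1 (R 4.3.3) on log2(normalized count + 1), trend in the prior spread, two-sided, with Benjamini-Hochberg adjustment over all genes tested. Fold changes on this scale understate those of low genes. In 5 libraries 100% of values were whole multiples of a step (tolerance 0.1 read). GαqKO replicate 3 has a step too near 1 to accept, so edgeR 4.0.16 and DESeq2 1.42.0 were run as alternatives on 5 libraries. Ratios of recovered reads are scaled by depth and leave out that library, with exact 95% intervals for counting error only. Exon overlaps, identical 150-base transcript windows and promoter motifs were computed from the reference. On simulated data, limma recovered 200 of 200 genes changed 2-fold, with 5 false calls among 13968. That recovery was not split by the level of the genes, so it cannot speak for calls on genes scarce in WT.

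The 45 genes and the other lists were chosen with earlier results of these data known. Values in every library are given for genes past the fold threshold, both receptor chains, Irf1, Irf7 and Irf9, other genes by range; from the other lists, at most 5 called genes a direction whose mean reached 50 normalized counts, and Stat2 and Ifnb1. Some genes that these choices select are not reported here. The symbols Ifit3c and Ddx58 matched no identifier, and Zbp1 was kept out of the sensing list.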

Additional observations from a re-analysis of the deposited data

How the results depend on the processing

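No gene named changed direction past the threshold in any alternative. A filter of 10 normalized counts in each library removes the genes scarce in WT. With it 9 of the 45 genes were higher (5 by a log2 fold change over 1), with a median log2 fold change of 0.156. Of the other interferon-stimulated genes 17 were higher (3 by that threshold). Of all 12054 genes that met this filter, 3941 were higher, and 831 were higher and 765 lower by the fold threshold. The median of the 45-gene list was 1.231 with DESeq2, 1.139 with chromosome medians removed, 1.121 with no filter and 1.133 with a pseudocount of 5. The other interferon-stimulated genes called lower numbered 3 with DESeq2 and 3 with no filter, the sensing genes called higher 5 with DESeq2, and the signalling genes called lower 6 with chromosome medians removed. Each replicate was left out in turn, with the genes tested kept. Then 22 to 23 of the 45 genes were higher and 5 to 7 lower. Of all 14096 genes tested, 4116 to 4370 were higher and 4445 to 4639 lower. The median of the 45-gene list ran from 1.221 to 1.449 (lowest without GαqKO replicate 3). By the fold threshold 19 to 20 of the 45 were higher and 1 to 3 lower (1 without WT replicate 3). Across all genes tested, 1394 to 1447 and 1464 to 1506 were. Between 3 and 5 other interferon-stimulated genes were lower (3 without GαqKO replicate 1). Among the 38 genes with under 10% exon overlap, which include all 9 that were not tested, 20 were higher and 4 lower. Of all genes tested, at any overlap, 31.8% and 34.1% were. The replicate numbers did not pair the cultures (correlations of same-numbered deviations -0.045, -0.148 and -0.064). With a replicate block 23 of the 45 genes were higher and 6 lower, beside 4324 and 4638 of all 14096 genes tested. The cause of the shifts between settings beyond the number of genes or samples was not tested.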

Other observations

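Among the other interferon-stimulated genes, a few that were almost without reads in WT were singled out after their values were seen. Ifitm1 (chr7:140546316-140549743), whose product hinders virus entry at membranes, had 1.0, 0 and 0 normalized counts in WT and 58.2, 50.9 and 62.4 in the libraries labelled GαqKO, and with 1 WT read the ratio of recovered reads was 163.1 (95% counting interval 28.6 to 6503). Mndal (chr1:173676539-173708447), a HIN-200 gene near Ifi203 and Ifi204, had 1.0, 1.9 and 0 in WT and 33.8, 40.5 and 43.3 under the GαqKO label, with a ratio of 36.4 (95% counting interval 11.97 to 180.8). Both groups of 3 libraries were wholly separated in each gene. Ifitm3, a close relative of Ifitm1, was listed at 0 in every library, and 60.9% of its exon bases lie in exons of other annotated genes.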
